A study of Homo sapiens with 10 samples.

Results

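RUNX and ETS transcription factor genes were examined in MDAMB231 cells as 9 named genes: RUNX1, RUNX2, RUNX3, CBFB, ETS1, ETS2, ERG, FLI1 and ELK3. They were chosen by name from 20098 protein-coding genes that GENCODE v44lift37 places on chromosomes 1 to 22 and X of GRCh37 (hg19). The locus of a gene was its annotated bounds widened by 50 kb on each side, and a promoter was any annotated start site of the gene widened by 1 kb on each side. MDAMB231 is a human triple-negative breast cancer cell line, grown in DMEM with 5% FBS and otherwise untreated. ChIP-seq, which sequences the DNA bound to a histone that an antibody has captured, was carried out for H3K4me1, H3K4me3 and H3K27Ac with 2 samples per mark and 1 input. FAIRE-seq, which recovers DNA free of nucleosomes, had 2 samples and 1 input of its own. The lists used here hold the peaks of both samples of an assay combined, so no value below carries a replicate error, and neither peaks nor genes are replicates of a condition.

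RUNX proteins bind DNA through a Runt domain and gain affinity and stability by pairing with CBFB, a subunit that does not touch DNA itself. ETS proteins bind a GGA core through the winged helix of the ETS domain, and often act beside RUNX, AP-1 or serum response factor on shared enhancers. Both families are best known from blood and vessel development, and in breast tissue RUNX1 is known from luminal cells while RUNX2 and ETS1 are known from basal-like and invasive tumor cells. H3K4me3 marks promoters, H3K4me1 marks enhancers, and H3K27Ac marks promoters and enhancers that are in use.

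The label of the cells was compared with marker genes of several cell types. All 5 mesenchymal or basal B markers (VIM, ZEB1, CD44, CAV1 and FN1) had an H3K4me3 peak and an H3K27Ac peak at a promoter, and 4 of them had a peak of every list there. Of the 5 epithelial markers, EPCAM, ESRP1 and CLDN7 had H3K4me3, while CDH1, EPCAM and CLDN7 had H3K27Ac. All 4 luminal markers (ESR1, PGR, GATA3 and FOXA1) had H3K4me3, but only GATA3 among them had H3K27Ac. The blood cell genes PTPRC, CD3E and SPI1 had no peak of any list at a promoter. Of 4 endothelial markers, KDR had an H3K4me3 peak and no other, and CDH5, TEK and VWF had none.

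The promoters of 6 of the 9 genes carried H3K4me3, against 67.3% of all protein-coding genes. The same 6 genes, RUNX1, RUNX2, CBFB, ETS1, ETS2 and ELK3, carried H3K27Ac, against 63.5% of all genes. H3K4me1 was at the promoters of RUNX1, ETS1, ETS2 and ELK3, or 4 of 9, where 20.0% of all genes had it. The 9 genes had a median of 4 groups of start sites against 2 over all genes, and a gene with more starts has more places where a peak can be counted. A FAIRE peak was present at 5 promoters (RUNX1, RUNX2, ETS1, ETS2 and ELK3), against 39.3% of all genes. RUNX1, ETS1, ETS2 and ELK3 had all 4 lists, as did 13.1% of all genes. With start sites widened by 500 bp, ETS2 lost FAIRE and ELK3 lost H3K4me1, and at the MANE Select start ELK3 lost H3K4me1 and ETS1 lost all but H3K4me3. RUNX3, ERG and FLI1 had no peak of any list at any start site, which was true of 29.3% of all genes. When the start of the MANE Select transcript alone was used, H3K4me3 was still at 6 genes (65.7% of 18878 genes with such a transcript), H3K27Ac at 5 (60.6%), H3K4me1 at 2 (12.5%) and FAIRE at 4 (31.9%). The absence of a peak means that none passed the authors' threshold, and expression was not measured in these lists.

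**Figure D1:**
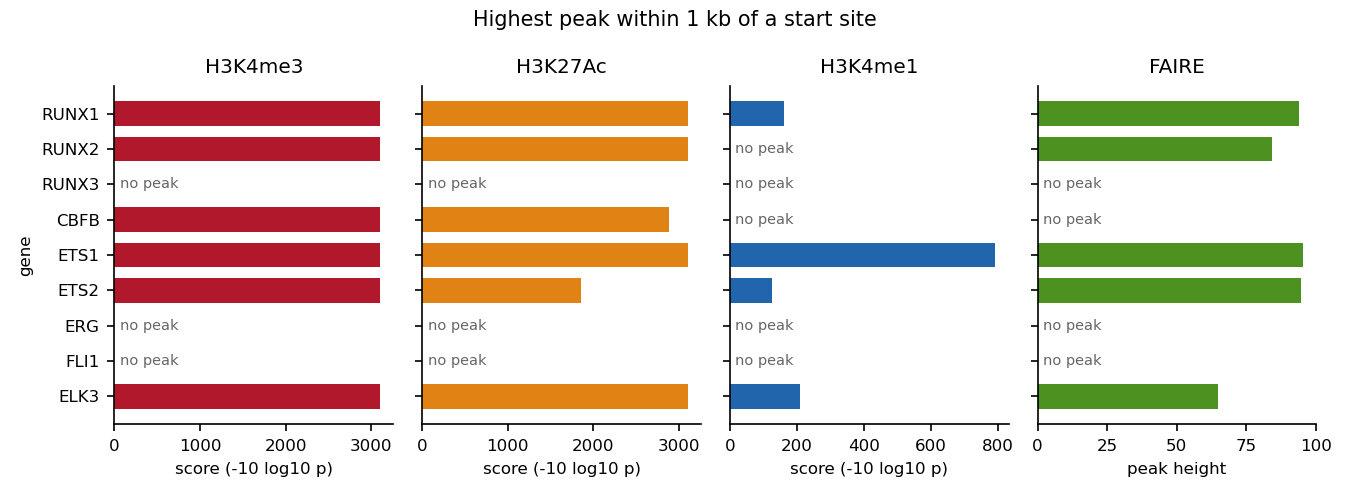
Highest deposited value of any peak within 1 kb of a start site, for each of the 9 genes and 4 lists (panels). Bars give the MACS score of histone peaks, minus 10 times the log10 of p, or the height of FAIRE peaks; H3K4me3 scores stand at 3100 for 6 genes, and RUNX3, ERG and FLI1 have no bar in any panel.

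Histone peaks carry the authors' MACS scores, which are log10 p-values multiplied by minus 10. These scores pile up at 3100, with a highest value of 3233. Over the H3K4me3 list 56.8% of peaks reached 3100 or more, so the score does not rank its strong peaks and their widths are given too. Over the H3K27Ac list 10.5% reached it, and in the H3K4me1 list, with a median score of 114, none did. The height of a FAIRE peak is the authors' value too, with a median of 61.1 over 46552 peaks. Some FAIRE peaks abut, such as chr21:36420789-36421333 and chr21:36421334-36422214 in RUNX1, and each was counted as a peak of its own.

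RUNX1, the regulator of blood stem cell formation and of luminal breast cells, is on the minus strand of chromosome 21 at chr21:36160098-37376965 (hg19). Its bounds span 1217 kb because a few transcripts without the basic tag start far upstream of the usual promoters. The gene is read from a distal promoter, P1, and from a proximal promoter, P2, which give proteins with different amino ends. At P1, with starts from 36421567 to 36421641, the H3K4me3 peak chr21:36418320-36422310 scored 3100, and so did the H3K27Ac peak chr21:36417954-36425306. An H3K4me1 peak with a score of 163 and 3 FAIRE peaks were also there, the tallest of them 93.8 high. At P2, with a start at 36260987, the H3K4me3 peak chr21:36252626-36264611 was 11986 bp wide. Only 12 of the 13532 protein-coding genes with an H3K4me3 peak at a promoter had a wider one, and the median of these genes was 2973 bp. The H3K27Ac peak over P2, chr21:36249343-36265805, was 16463 bp wide against a median of 3251 bp, with 75 genes wider. P2 had no H3K4me1 peak, the nearest being 15931 bp away, and its FAIRE peak was 31.5 high. Both promoters of RUNX1 thus carried H3K4me3 and H3K27Ac with a score of 3100, while H3K4me1 was at P1 and the broad domain was at P2.

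RUNX2, the master regulator of bone formation, is on the plus strand at chr6:45295894-45632086 and also has 2 main promoters. The distal P1, with starts from 45295894 to 45296464, had a narrow H3K4me3 peak of 1226 bp with a score of 107. Its H3K27Ac peak scored 116, and its FAIRE peak was 84.3 high. The proximal P2, with starts from 45389773 to 45390314, had an H3K4me3 peak of 5844 bp at chr6:45386759-45392602 and an H3K27Ac peak of 6496 bp, each with a score of 3100. A FAIRE peak was missing at P2, and the nearest was 10113 bp away. In RUNX2 the strong H3K4me3 and H3K27Ac were therefore at P2 and the FAIRE peak was at P1. Another H3K4me3 peak in the gene, chr6:45343897-45346939, was at a start site of SUPT3H, which overlaps RUNX2 on the other strand.

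The bases before these 4 promoters are shown because the 2 promoters of a gene differed in their marks. Each sequence is the 150 bases before the outermost start of its group in GRCh37, written 5′ to 3′ on the strand of the gene, and none overlaps an exon of the gene. They lie at chr21:36421642-36421791 (RUNX1 P1, minus strand), chr21:36260988-36261137 (RUNX1 P2, minus strand), chr6:45295744-45295893 (RUNX2 P1, plus strand) and chr6:45389623-45389772 (RUNX2 P2, plus strand). Capitals mark every match, on either strand, to a RUNX motif (TGTGGT), an ETS motif (CCGGAA or CAGGAA) or an AP-1 motif (TGANTCA, where N is any base).
RUNX1 P1: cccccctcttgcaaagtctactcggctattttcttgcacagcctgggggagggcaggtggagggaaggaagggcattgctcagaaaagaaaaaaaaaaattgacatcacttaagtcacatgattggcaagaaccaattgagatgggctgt
RUNX1 P2: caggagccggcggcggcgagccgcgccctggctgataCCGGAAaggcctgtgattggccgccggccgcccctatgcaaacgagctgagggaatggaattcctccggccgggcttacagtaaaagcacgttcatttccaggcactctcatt
RUNX2 P1: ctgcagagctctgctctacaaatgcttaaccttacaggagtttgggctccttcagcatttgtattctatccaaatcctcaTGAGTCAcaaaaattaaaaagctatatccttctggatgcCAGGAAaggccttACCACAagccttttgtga
RUNX2 P2: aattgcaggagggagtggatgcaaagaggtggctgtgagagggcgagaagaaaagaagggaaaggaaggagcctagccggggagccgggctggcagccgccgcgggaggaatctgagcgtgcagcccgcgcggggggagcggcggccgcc
The window before RUNX2 P1 held 1 match to each motif, that before RUNX1 P2 held 1 ETS match, and the windows before RUNX1 P1 and RUNX2 P2 held none. Among the 150 bases before 18878 MANE Select starts, 5.03% held the RUNX letters, 26.9% the ETS letters and 2.84% the AP-1 letters. A match describes the letters and does not show binding.

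**Figure D2:**
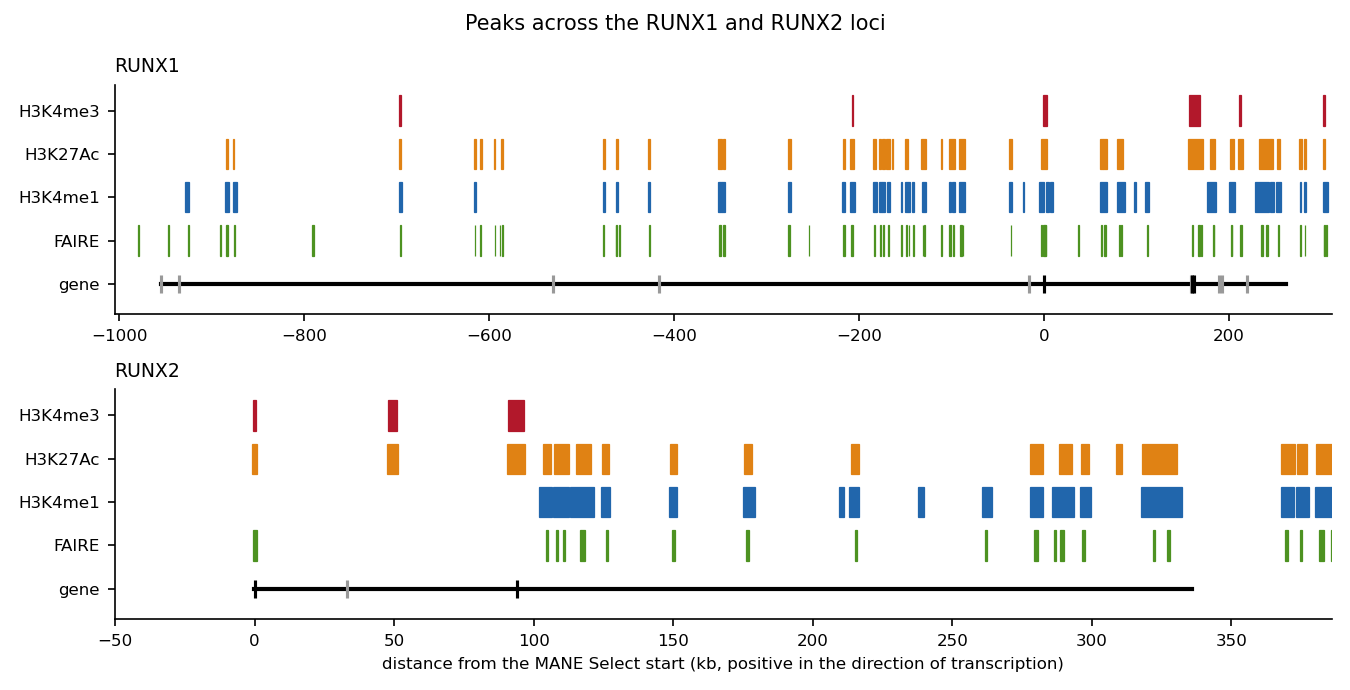
Peaks of the 4 lists across the loci of RUNX1 and RUNX2, by distance in kb from the start of the MANE Select transcript (P1 of each gene), positive in the direction of transcription. Boxes are peaks, the black line is the gene, black ticks are starts of transcripts tagged basic and grey ticks are other starts; the widest H3K4me3 box of each gene lies at P2, downstream of 0.

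Across its whole locus RUNX1 had 41 H3K27Ac, 43 H3K4me1, 75 FAIRE and 6 H3K4me3 peaks. With bounds over transcripts tagged basic, which shortens the locus to 362 kb, these counts were 16, 17, 32 and 4, and the share of bases under H3K27Ac rose from 11.5% to 21.9%. Distal peaks were defined as those with no start site of any gene within 1 kb. Of the 36 distal H3K27Ac peaks of RUNX1, 29 shared bases with both an H3K4me1 and a FAIRE peak. Upstream of P1 the distal H3K27Ac peaks chr21:36518258-36524533 and chr21:36548878-36554267 each scored 3100. The highest score downstream of P2, 3119, was in an intron at chr21:36177169-36188936, a peak of 11768 bp that was wider than 99.2% of the H3K27Ac list. In the RUNX2 locus there were 19 H3K27Ac, 17 H3K4me1 and 21 FAIRE peaks. All but 1 of these H3K4me1 peaks were distal, and none was upstream of P2. The highest H3K4me1 score of any of the 9 loci, 1076, was in an intron 15.5 kb downstream of a RUNX2 start, at chr6:45402999-45408590, and exceeded 99.5% of the H3K4me1 list. Near the 3′ end of RUNX2 an H3K27Ac peak of 12668 bp, chr6:45613859-45626526, scored 3100.

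RUNX3, a factor of T cell and sensory neuron identity that is often silenced in epithelial tumors, is at chr1:25226002-25291612 on the minus strand. No peak lay within 1 kb of its 3 groups of start sites, and its locus held no H3K4me3 peak. At the MANE Select start, the closest H3K27Ac peak lay at 18108 bp and the closest FAIRE peak at 18723 bp. The gene had an H3K27Ac peak with a score of 151 at chr1:25236624-25238659, a FAIRE peak there, and a broad H3K4me1 peak with a score of 63.8 at chr1:25274555-25280001. The other H3K27Ac peak, chr1:25173854-25176091 with a score of 437, lay across the edge of the locus.

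CBFB, the shared partner of the RUNX proteins, is at chr16:67062887-67134961 on the plus strand. Its promoter had H3K4me3 over 3252 bp with a score of 3100 and H3K27Ac over 3525 bp with a score of 2886. These widths were near the medians of all genes with such a peak. It had neither H3K4me1 nor FAIRE at the promoter, with the nearest FAIRE peak 10526 bp away. An intronic element at chr16:67089149-67090935 had H3K27Ac at 108, H3K4me1 at 119 and a FAIRE peak 77.2 high. Of the 5 H3K4me3 peaks of the locus, 3 were at start sites of the neighbours CES4A, PHAF1 and B3GNT9.

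ETS1, a factor of lymphocytes, vessels and invasive tumor cells, is on the minus strand at chr11:128328656-128457453. Its MANE Select start, upstream at 128457453, had an H3K4me3 peak of 915 bp with a score of 94.7 and no peak of another list. The downstream start group, from 128392096 to 128392205, lay under an H3K4me3 peak of 6323 bp at chr11:128387315-128393637 and an H3K27Ac peak of 10866 bp at chr11:128385945-128396810, both with a score of 3100. Only 286 genes had a wider promoter H3K4me3 peak and 274 a wider promoter H3K27Ac peak. An H3K4me1 peak there scored 794, above 98.7% of the H3K4me1 list, and a FAIRE peak was 95.4 high. Of the 4 start groups of ETS1, the downstream one was the only one with a peak of every list. The whole locus, with 4 start groups, held 8 H3K27Ac, 11 H3K4me1 and 14 FAIRE peaks. A second wide H3K27Ac peak, chr11:128371780-128382344, scored 3100 and covered a minor start of ETS1. Within 1 kb of another minor start, at 128333845, were an H3K27Ac peak with a score of 2987 and an H3K4me1 peak with a score of 222.

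ETS2, a target of Ras and MAP kinase signals, is on the plus strand at chr21:40177107-40196879. The main start group had H3K4me3 over 3825 bp with a score of 3100, H3K27Ac at 1859, a FAIRE peak 31.0 high and an H3K4me1 peak with a score of 50.6, close to the list's lowest value of 50.01. A downstream group of starts, from 40181327 to 40181560, had no H3K4me3 but H3K27Ac at 1031, H3K4me1 at 127 and a FAIRE peak 94.8 high. Of the 9 loci, that of ETS2 had the highest shares of bases under H3K27Ac (28.4% of its 119.8 kb), H3K4me1 (23.5%) and FAIRE (13.8%). With bounds over basic transcripts, RUNX1 was above it in H3K4me1, at 24.7%. These shares exceeded those of 98.1%, 98.9% and 99.9% of all genes. The locus held 12 H3K27Ac and 16 FAIRE peaks, of which 4 and 5 met the gene itself. Counting FAIRE peaks from the median height up left 5 in the locus. Its highest H3K27Ac score, 2976, was downstream of the gene at chr21:40209794-40213636.

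ELK3, a ternary complex factor that works with serum response factor and can repress, is on the plus strand at chr12:96588153-96663602. Its promoter had H3K4me3 over 4258 bp and H3K27Ac over 8274 bp, both with a score of 3100. H3K4me1 at 209 and a FAIRE peak 59.8 high were beside it, and the H3K4me1 peak was within 1 kb only of a start of a transcript without the basic tag. Another FAIRE peak, 64.8 high, was at an internal start at 96640909. In its introns, an H3K27Ac peak at chr12:96611309-96615450 scored 1870.3 and the H3K4me1 peak chr12:96627023-96635090 scored 503.

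FLI1 and ERG are close relatives known from endothelial and blood cells and from fusions with EWSR1 in Ewing sarcoma and with TMPRSS2 in prostate cancer. FLI1 is on the plus strand at chr11:128556430-128683162, on the chromosome of ETS1, and ERG is on the minus strand at chr21:39751949-40033704, on that of ETS2. No start site of FLI1 had a peak, and the nearest H3K4me3 peak to its MANE Select start group was 105036 bp away. That peak, chr11:128456927-128457841, was the one at the MANE Select start of ETS1. The loci of ETS1 and FLI1 overlap at their edges. Inside FLI1, however, the H3K27Ac peak chr11:128577556-128582500 scored 3100 and chr11:128583479-128588882 scored 2799.8. H3K4me1 peaks over them scored 697 and 589.6, above 98.0% and 96.7% of that list, and the tallest FAIRE peak there was 107 high. FLI1 therefore had strongly marked introns and no marked promoter. ERG had neither. Its 3 H3K27Ac and 3 H3K4me1 peaks were all outside the gene, and the gene body held a single peak, of FAIRE, 29.0 high at chr21:39877322-39878035. The H3K27Ac peak upstream of ERG, chr21:40050865-40052831, scored 208.

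**Figure D3:**
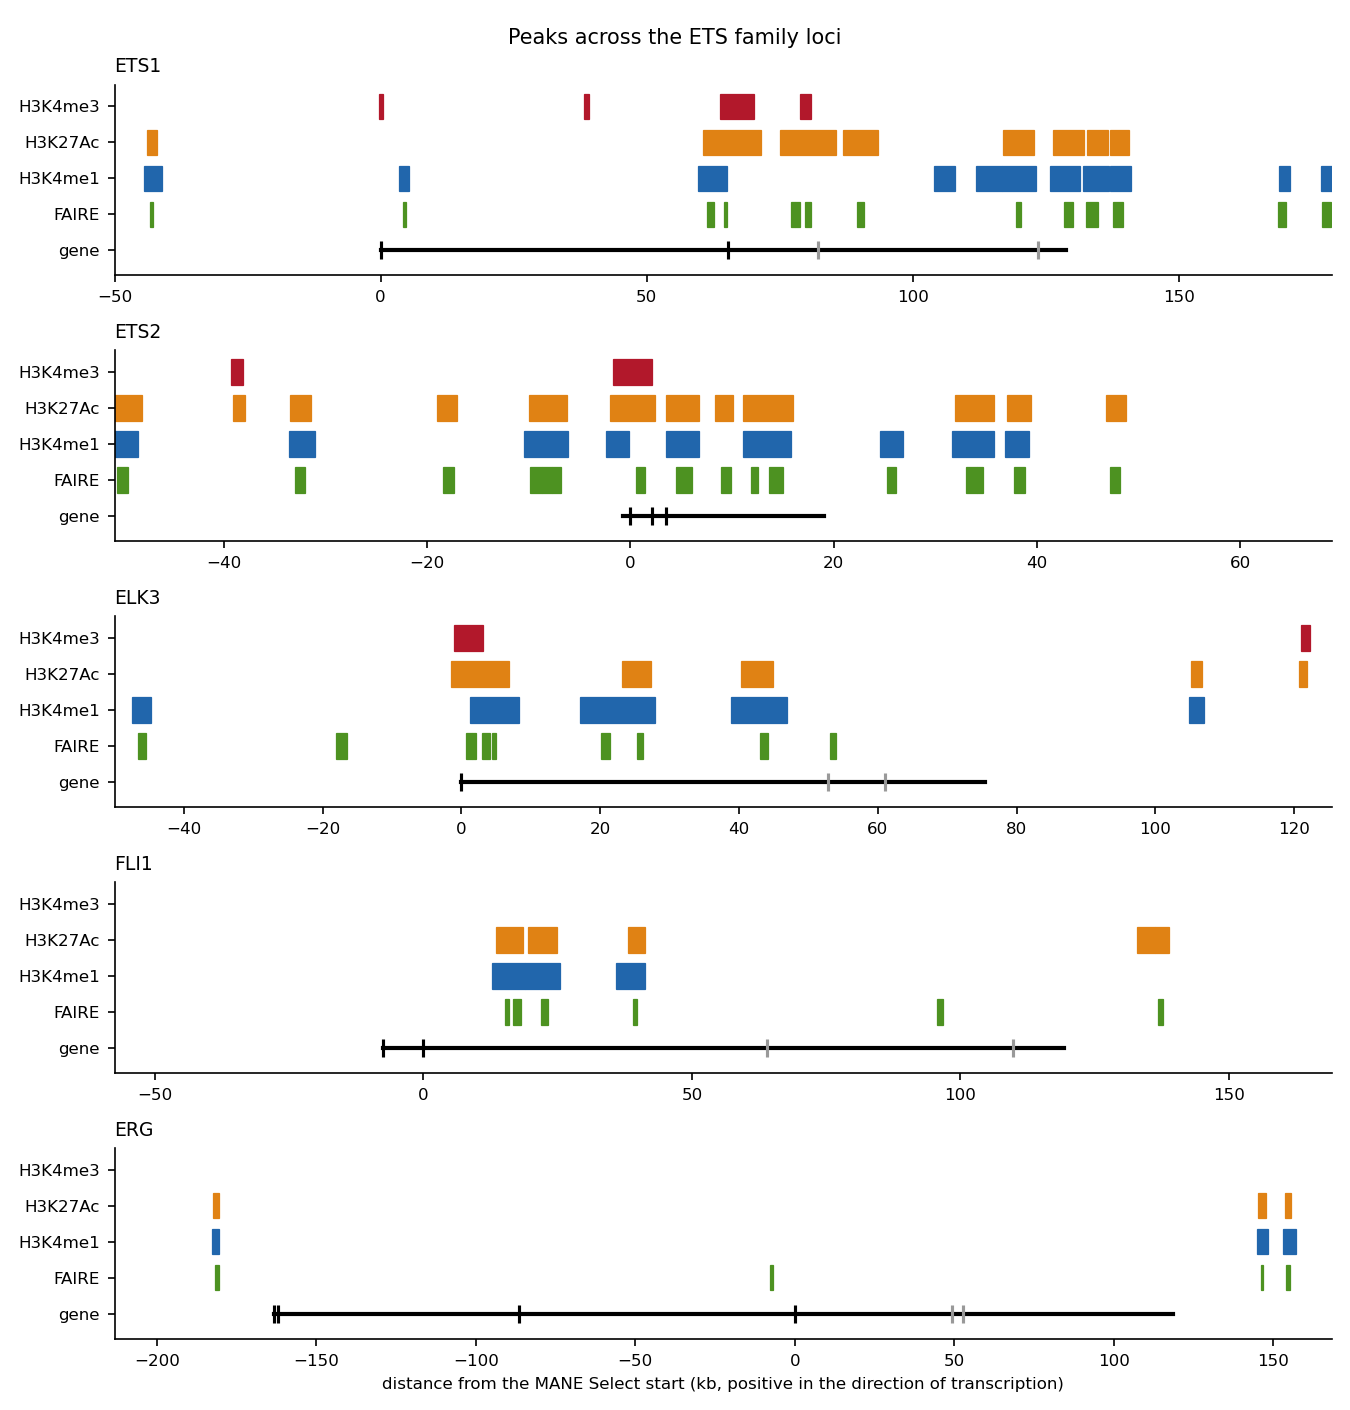
Peaks of the 4 lists across the loci of ETS1, ETS2, ELK3, FLI1 and ERG, by distance in kb from the start of the MANE Select transcript, positive in the direction of transcription. Boxes are peaks, the black line is the gene, black ticks are starts of transcripts tagged basic and grey ticks are other starts; the wide H3K4me3 box of ETS1 lies at the downstream start, FLI1 has H3K27Ac and H3K4me1 in its introns, and the body of ERG holds only a FAIRE peak.

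In H3K4me3, ETS1 and RUNX2 both had a narrow upstream and a wide downstream peak, whereas the FAIRE peak was at the downstream start in ETS1 and at the upstream one in RUNX2. The bases before the downstream start are given because the strong marks were there. These 150 bases, 5′ to 3′ on the minus strand of GRCh37 at chr11:128392206-128392355, overlap no exon of ETS1, with capitals for the motifs as above.
ETS1 downstream start: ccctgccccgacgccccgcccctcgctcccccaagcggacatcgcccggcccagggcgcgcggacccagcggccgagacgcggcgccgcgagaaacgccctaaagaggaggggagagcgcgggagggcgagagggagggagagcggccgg
This window held no match to the RUNX, ETS or AP-1 letters.

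The CpG content of the starts was compared with H3K4me3, since CpG-rich promoters usually carry this mark. The observed to expected CpG ratio in 1000 bases around the start was 0.362 at RUNX1 P1 and 0.955 at P2. It was 0.125 at RUNX2 P1 and 0.825 at P2, and 0.242 at the upstream and 0.911 at the downstream start of ETS1. In all 3 genes the CpG-rich start had the wider H3K4me3 peak. Among MANE Select starts with a ratio of 0.6 or more, 11115 of 12753 (87.2%) had an H3K4me3 peak, against 21.0% of the 6125 below it. RUNX3, with a ratio of 0.918, and FLI1, with 0.802, belonged to the 1638 CpG-rich MANE Select starts without H3K4me3. ERG had a low ratio of 0.369 at its MANE Select start, but its starts near 40033704 and 40032591 had ratios of 0.835 and 0.946 and no H3K4me3 either. CBFB at 1.04, ETS2 at 0.791 and ELK3 at 0.800 had both a high ratio and H3K4me3. RUNX1, RUNX2 and ETS1 had H3K4me3 at MANE Select starts of low ratio. In the class of starts with ratios under 0.3, to which RUNX2 and ETS1 belong, 7.94% had it, and in the class from 0.3 to 0.6, to which RUNX1 belongs, 39.1% had it. The H3K4me3 peak at the MANE Select start of ETS1 scored 94.7, under the score of 100 that stands for p of 1e-10. With that stricter limit ETS1 would lose H3K4me3 at this start.

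**Figure D4:**
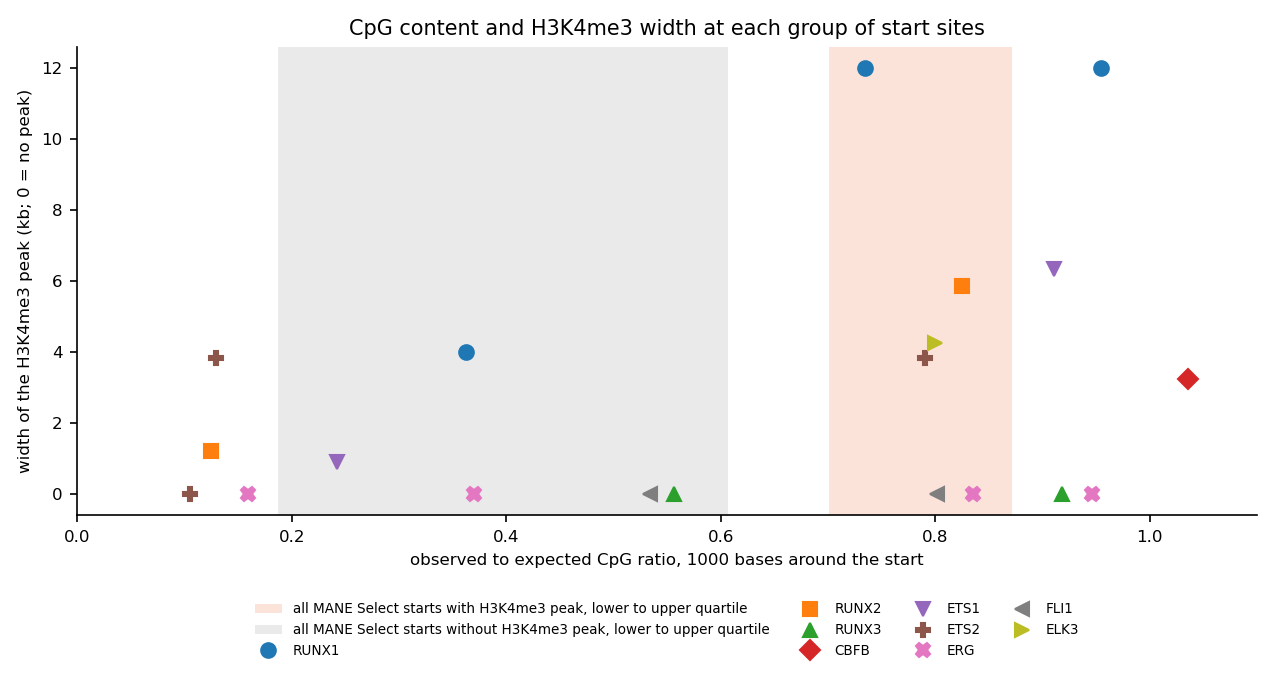
Observed to expected CpG ratio in 1000 bases around a start (horizontal) and width in kb of the H3K4me3 peak within 1 kb (vertical, 0 for none), for each group of start sites with a transcript tagged basic. Shaded bands run from the lower to the upper quartile of the ratio over all MANE Select starts with and without an H3K4me3 peak, start groups under a single peak share its width, and RUNX3, FLI1 and ERG each have a point at 0 kb with a ratio above 0.8.

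The share of each locus under peaks was set beside that of all 20098 genes. The median over the 9 loci was 11.3% for H3K27Ac against 6.17% over all genes, 13.0% against 2.44% for H3K4me1, and 4.63% against 1.84% for FAIRE. For H3K4me3 it was 2.32% against 3.62%. All 9 loci were above the median of all genes for H3K4me1, 7 were for H3K27Ac, 6 for FAIRE and 3 for H3K4me3. For H3K4me1 some lay close to that median: ERG, at 2.61%, exceeded 51.3% of all genes, CBFB 56.5% and RUNX3 56.7%. The RUNX3 share came from 1 peak with a score of 63.8, which was lost at p of 1e-10 or less. ETS2, ETS1 and RUNX2 had the highest shares under H3K27Ac (28.4%, 21.5% and 17.9%) with bounds over all transcripts, while with basic bounds RUNX1 had 21.9%. The loci of RUNX3 and ERG had the lowest shares (1.28% and 1.67%) under both. CBFB, with H3K27Ac over 6.86% of its locus, exceeded 54.0% of all genes in that list, 69.3% in H3K4me3, 56.5% in H3K4me1 and 42.8% in FAIRE. Genes on other chromosomes with loci of at least 150 kb were compared with ETS2 and ETS1 over the 4 shares. The ETS2 locus itself, at 119.8 kb, is below that limit. The gene nearest to ETS2 was PRKCH, at a Euclidean distance of 5.96 percentage points. Those nearest to ETS1 were CCDC80 and ENSG00000274322, at 2.06 and 2.29 percentage points.

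**Figure D5:**
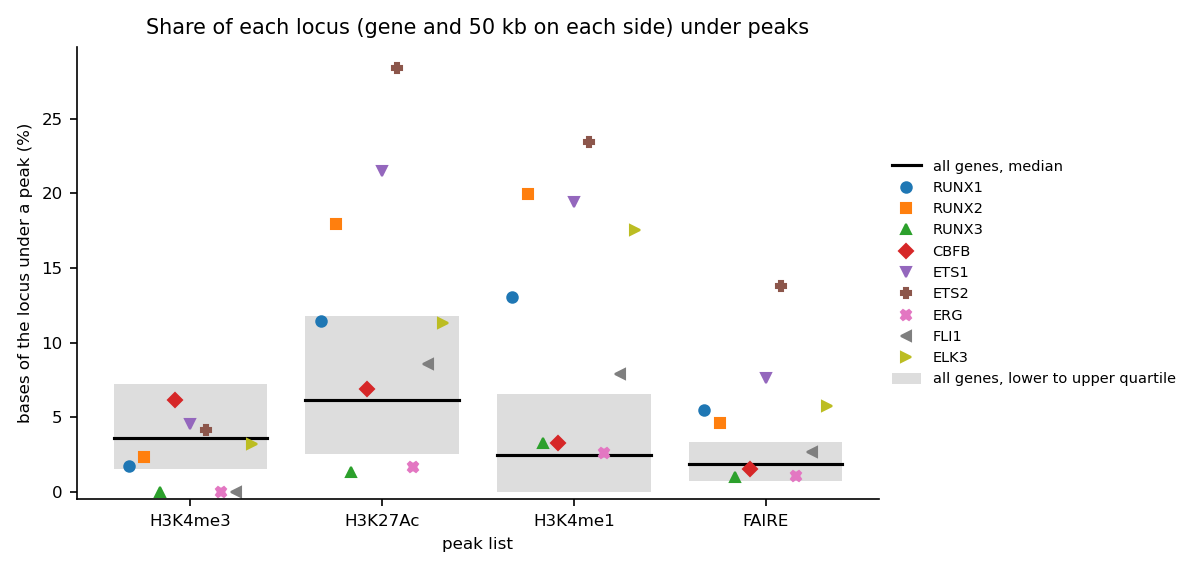
Share of the bases of each locus, in percent, that lie under a peak of each list (horizontal). Points are the 9 genes, grey bars run from the lower to the upper quartile over all 20098 genes and black lines are their medians. For H3K4me1 all 9 points lie above the line of 2.44%, with ERG close to it at 2.61%.

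In all, the 9 loci held 22 H3K4me3, 101 H3K27Ac, 94 H3K4me1 and 151 FAIRE peaks, of which RUNX1 alone gave 75 of the FAIRE peaks. At no start site of any gene were 79 of the H3K27Ac, 83 of the H3K4me1 and 135 of the FAIRE peaks. In the whole lists this held for 21263 of 37495 H3K27Ac, 19855 of 26771 H3K4me1 and 34817 of 46552 FAIRE peaks. Of the 79 distal H3K27Ac peaks, 59 shared bases with both H3K4me1 and FAIRE, 10 with FAIRE alone, 4 with H3K4me1 alone and 6 with neither. The share with both was 74.7%, against 57.7% of the 21263 distal H3K27Ac peaks of the whole list. RUNX1 had both at 29 of its 36, RUNX2 at 13 of 15, ETS2 at 5 of 9, ETS1 at 3 of 4, FLI1 at 3 of 5, ERG at 3 of 3 and CBFB at 2 of 2. ELK3 had both at 1 of 3 and RUNX3 at 0 of 2. Of the 83 distal H3K4me1 peaks, 18 had no H3K27Ac, or 21.7% against 29.3% of the whole list, among them 7 of RUNX1 and 5 of ETS1. Of the 135 distal FAIRE peaks, 11 met no histone peak, or 8.15% against 23.4% of the whole list, and 7 of these were in the RUNX1 locus.

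Among all H3K27Ac peaks of the loci 74.3% shared bases with an H3K4me1 peak (95% Wilson interval 65.0% to 81.8%), against 54.6% of the whole H3K27Ac list. In the other direction 80.9% of the H3K4me1 peaks (71.7% to 87.5%) shared bases with H3K27Ac, against 74.7% of that list. FAIRE peaks of the loci met H3K27Ac in 81.5% (74.5% to 86.8%) and H3K4me1 in 76.8% (69.5% to 82.8%), against 71.8% and 54.9% of the whole FAIRE list. A FAIRE peak was found at 84.2% of the H3K27Ac peaks (75.8% to 90.0%) and 89.4% of the H3K4me1 peaks (81.5% to 94.1%), against 68.2% and 71.4%. These intervals cover counting error only, since neighbouring peaks are not independent, and no test was run. The loci and the whole lists also differ in their share of distal peaks. For H3K27Ac these were 79 of 101 in the loci and 21263 of 37495 in the whole list. How far this difference enters the shares was not tested. With only the taller FAIRE peaks, from the median height up, the last shares of the loci were 53.5% and 56.4%, and with the centre of the H3K4me1 peak inside the FAIRE peak the last was 57.4%. The shares of the whole lists were not recomputed under these settings, so these values have no counterpart to be read against.

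Neighbouring H3K27Ac peaks were joined over gaps of up to 10 kb, a rule chosen after the data were seen. For each locus the chain with the most bases under H3K27Ac is given, and a chain can run past the edge of the locus. The whole H3K27Ac list formed 26547 chains with a median of 1 peak and 3.06 kb, whereas those given here were picked as the fullest. The ETS1 chain had 3 peaks with 28.0 kb under H3K27Ac. In RUNX2, 6 peaks with 27.3 kb formed a chain of 52.6 kb in the 3′ part of the gene. The RUNX1 chain, over P2, had 2 peaks with 21.9 kb. The chain of ETS2 had 6 peaks with 20.0 kb, that of FLI1 had 2 with 10.3 kb and that of ERG, outside the gene, had 2 with 4.41 kb. ELK3 and RUNX3 had single peaks, of 8.27 kb and 2.24 kb. The chain that met the CBFB locus had only its first peak there, at the start of B3GNT9, and is not described. These counts depended on the gap in several genes. With a gap of 5 kb the fullest RUNX1 chain was another one, of 4 peaks downstream of P2, and with 20 kb it had 8 peaks. Under the same gaps the fullest chain had 5 and 13 peaks at ETS2, the latter running past the locus, and 3 under both at ETS1. At RUNX2 it had 4 and 6, and the 4 peaks were not part of the chain in the 3′ part of the gene.

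For 5 genes, the tallest distal FAIRE peak that shared bases with both H3K27Ac and H3K4me1 is shown by its central 300 bases, since FAIRE and both enhancer marks meet there. Of 8 genes with such a peak, these 5 were picked after their values and sequences were seen and by no fixed rule. All are written 5′ to 3′ on the plus strand of GRCh37, and none overlaps an exon of its gene. The RUNX1 element, chr21:36605061-36605360, lies 184 kb upstream of the nearest start tagged basic and its FAIRE peak was 119.9 high. The RUNX2 element, chr6:45623475-45623774, lies in the gene, 233 kb downstream of a start, and its height of 173 was the highest of all 151 peaks. The ETS1 element, chr11:128337444-128337743, is in an intron, with a height of 134. The ELK3 element, chr12:96631607-96631906, is in an intron too, with a height of 130.0. The FLI1 element, chr11:128579316-128579615, is 15.5 kb downstream of a start, with a height of 107. Capitals mark the RUNX, ETS and AP-1 letters as above.
RUNX1 element: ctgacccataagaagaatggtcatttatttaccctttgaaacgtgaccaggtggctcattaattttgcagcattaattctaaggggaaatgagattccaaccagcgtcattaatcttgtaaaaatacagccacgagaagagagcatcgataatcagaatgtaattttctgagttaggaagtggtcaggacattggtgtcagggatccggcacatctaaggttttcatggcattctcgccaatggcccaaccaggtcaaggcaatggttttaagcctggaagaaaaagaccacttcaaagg
RUNX2 element: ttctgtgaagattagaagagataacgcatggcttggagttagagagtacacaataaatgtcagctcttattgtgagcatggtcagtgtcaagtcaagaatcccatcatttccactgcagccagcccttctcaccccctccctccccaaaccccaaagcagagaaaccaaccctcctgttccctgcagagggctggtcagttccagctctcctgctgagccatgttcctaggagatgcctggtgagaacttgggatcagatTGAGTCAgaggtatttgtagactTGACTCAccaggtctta
ETS1 element: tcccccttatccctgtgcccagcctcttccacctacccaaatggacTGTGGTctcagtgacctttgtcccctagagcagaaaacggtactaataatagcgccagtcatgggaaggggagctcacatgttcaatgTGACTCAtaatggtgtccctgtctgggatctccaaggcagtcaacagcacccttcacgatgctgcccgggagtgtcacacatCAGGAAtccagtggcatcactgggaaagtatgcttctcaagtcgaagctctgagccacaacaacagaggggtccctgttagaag
ELK3 element: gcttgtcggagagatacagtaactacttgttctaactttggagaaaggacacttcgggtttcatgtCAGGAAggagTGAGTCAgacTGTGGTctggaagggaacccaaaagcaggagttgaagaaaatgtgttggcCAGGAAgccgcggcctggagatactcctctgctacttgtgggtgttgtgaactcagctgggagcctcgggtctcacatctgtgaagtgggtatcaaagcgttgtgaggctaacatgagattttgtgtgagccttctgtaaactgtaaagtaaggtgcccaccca
FLI1 element: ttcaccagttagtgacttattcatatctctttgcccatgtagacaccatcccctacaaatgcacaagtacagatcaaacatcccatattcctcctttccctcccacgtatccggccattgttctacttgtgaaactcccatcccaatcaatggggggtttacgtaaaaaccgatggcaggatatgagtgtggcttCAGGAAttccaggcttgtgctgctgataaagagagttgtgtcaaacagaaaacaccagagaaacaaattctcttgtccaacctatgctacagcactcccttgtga
The ETS1 and ELK3 elements held letters of all 3 motifs, with 1 RUNX match each, 1 AP-1 match each, and 1 ETS match in ETS1 against 2 in ELK3. The RUNX2 element held 2 AP-1 matches, the FLI1 element held 1 ETS match, and the RUNX1 element held none. Of the like elements that are not shown, that of CBFB held 2 AP-1 matches, and those of ETS2 and ERG held none.

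Over the 151 FAIRE peaks of the loci, the central 300 bases held the AP-1 letters in 75 peaks (49.7%, 95% Wilson interval 41.8% to 57.6%), against 39.2% of all FAIRE peaks. ETS letters were in 63 (41.7%, 34.2% to 49.7%) against 40.0%, and RUNX letters in 31 (20.5%, 14.9% to 27.7%) against 24.8%. The ETS and RUNX intervals include the share of the whole list, and the AP-1 interval lies above it, with neighbouring peaks not independent. In the central 150 bases AP-1 letters were in 27.2% of the peaks in the loci (20.7% to 34.7%) against 23.1% of all FAIRE peaks, an interval that includes the share of the list. By gene, AP-1 letters were in 37 of 75 peaks at RUNX1, 11 of 21 at RUNX2, 8 of 14 at ETS1, 10 of 16 at ETS2, 4 of 10 at ELK3, 2 of 3 at CBFB, 1 of 2 at RUNX3, 1 of 4 at ERG and 1 of 6 at FLI1. ETS letters were in 28 of 75 peaks at RUNX1, 13 of 21 at RUNX2, 5 of 14 at ETS1, 7 of 16 at ETS2, 5 of 10 at ELK3, 4 of 6 at FLI1, 1 of 4 at ERG, 0 of 3 at CBFB and 0 of 2 at RUNX3. RUNX letters were in 15 of 75 peaks at RUNX1, 4 of 21 at RUNX2, 2 of 2 at RUNX3, 1 of 3 at CBFB, 2 of 14 at ETS1, 2 of 16 at ETS2, 3 of 10 at ELK3, 1 of 6 at FLI1 and 1 of 4 at ERG. In whole peaks the shares in the loci were 77.5%, 75.5% and 46.4% for AP-1, ETS and RUNX, and over all FAIRE peaks 59.2%, 70.9% and 51.4%.

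Of 23 other ETS family genes, 16 had H3K4me3 at a promoter, 15 had H3K27Ac, 5 had H3K4me1 and 9 had FAIRE. Over all genes the shares were 67.3%, 63.5%, 20.0% and 39.3%, so these counts were near the background. The 7 of 23 with no peak of any list, near the 29.3% of all genes, were ETV3L, ELF3, ELF5, FEV, SPI1, SPIB and SPIC. Among them were the blood factors SPI1, SPIB and SPIC and the epithelial factors ELF3 and ELF5. The epithelial factor EHF, however, had H3K4me3 and H3K27Ac at a promoter, as did SPDEF. The highest shares of a locus under H3K27Ac were at ERF, an ETS repressor, with 32.3%, EHF, an epithelial factor, with 28.6%, and ETV1 with 18.1%. The ERF locus also held 7 H3K4me3 peaks over 26.6% of its bases, and the widest H3K27Ac peak at its own promoter was 5008 bp. Among 15 RUNX partners and co-regulators, 13 had H3K4me3, 11 had H3K27Ac, 5 had H3K4me1 and 9 had FAIRE, beside the same shares over all genes. With the MANE Select start alone, H3K4me1 was at 1 of the 15 partners and 2 of the 23 ETS genes, against 12.5% of all genes, so for H3K4me1 neither list stayed above the background. The partners then had H3K4me3 at 12, H3K27Ac at 11 and FAIRE at 7, against 65.7%, 60.6% and 31.9% of all genes. CBFA2T3 and TLE4, corepressors, had no promoter peak. The Hippo coactivators WWTR1 and YAP1 and the corepressor TLE1 led in H3K27Ac, with 16.7%, 12.3% and 13.3% of their loci.

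Of 14 known RUNX or ETS targets, 3 had H3K4me3 at a promoter, 5 had H3K27Ac, 4 had H3K4me1 and 3 had FAIRE, against 67.3%, 63.5%, 20.0% and 39.3% of all genes. No promoter peak was found at the bone gene IBSP, the metalloproteinase genes MMP3, MMP9 and MMP13, the endothelial genes CDH5 and TEK, or the myeloid gene MPO. PLAU, which encodes urokinase, had a peak of all 4 lists at its promoter and H3K27Ac over 34.9% of its locus. CSF1R, the receptor of macrophage colony-stimulating factor, followed with 21.6%, and BGLAP, which encodes osteocalcin, with 16.6%. With the MANE Select start alone, H3K27Ac was at 3 and FAIRE at 1 of the targets, against 60.6% and 31.9% of all genes. The list shares CDH5, KDR and TEK with the endothelial markers, and SPI1 is both a blood marker and an ETS gene.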

How the data were processed

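Peak lists of MDAMB231 cells were used, from H3K4me1, H3K4me3 and H3K27Ac ChIP-seq and from FAIRE-seq, each list made by the authors from the 2 samples of an assay combined. The authors aligned reads with BWA to GRCh37 (hg19), took out duplicate reads and those that mapped with low quality, and then ran MACS on the histone samples with default settings and the input as control; the MACS version is not given in the sources used here. For histone marks the deposited score is a −log10 p-value from MACS, multiplied by 10. The deposited signal of a FAIRE peak is its height as FindPeaks gave it. Lists were assigned to assays by their numbers of peaks, which equalled those the study gives. Read depth is unknown from these lists, and no replicate error could be computed.

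Gene bounds and start sites came from GENCODE v44lift37. A locus was the gene bounds widened by 50 kb, and a promoter was a start site widened by 1 kb. Starts within 1 kb of each other were joined into groups. Any shared base counted as overlap. Shares of bases under peaks, overlaps, CpG ratios in 1000 bases and motif matches on both strands in 300 bases were computed with python 3.11.15, numpy 2.4.6, pandas 2.3.3 and statsmodels 0.14.6, and drawn with matplotlib 3.10.9. Counting was tested on simulated data against bedtools 2.31.1. Wilson 95% intervals cover counting error only. The comparisons are counts and medians beside the same over all protein-coding genes or whole lists, with no test.

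The members and the gene lists were chosen with earlier results of these data known. Besides all 9 members, genes named are those of each list with no promoter peak of any kind, the 3 of each list with the highest share of locus bases under H3K27Ac, and for the 2 members highest in that share up to 2 of the most similar genes on other chromosomes, by Euclidean distance over the 4 shares. Single peaks described, the chains of H3K27Ac peaks, and other genes given by name were chosen after their values were seen. The marker PECAM1 had no match in the annotation and was left out. Alternatives were other flanks, promoter widths, transcript classes, stricter peaks, overlap by peak centre and other motif windows. The alternatives with basic or MANE Select transcripts and with other chain gaps were chosen after seeing the data.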

Additional observations from a re-analysis of the deposited data

How the results depend on the processing

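Of the main results under the alternatives, 117 kept their value within the counting interval or within 1.5 times the count, and 26 moved further. No paired analysis was possible because the lists used here combine both samples of each assay, and the results come from no test between samples.

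With a flank of 100 kb the loci held 35 H3K4me3 peaks, a change that follows from the wider loci. With MACS peaks at p of 1e-10 or less, the loci held 61 H3K4me1 peaks, H3K4me1 was at the promoters of 3 other ETS family genes and 3 RUNX partners, 93.4% of H3K4me1 peaks met H3K27Ac and 98.4% met FAIRE, and 58.3% of FAIRE peaks met H3K4me1. When FAIRE peaks below the median height were dropped, the loci held 77 of them, 88.3% of these met H3K27Ac and 84.4% met H3K4me1, while 53.5% of H3K27Ac peaks and 56.4% of H3K4me1 peaks met FAIRE. Fewer peaks enter under both settings, and beyond that the cause was not tested. The shares of all genes and of the whole lists were not recomputed under them, so these values have no counterpart to be read against.

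With the centre of the first peak inside the second, 63.4% of H3K27Ac and 57.4% of H3K4me1 peaks met FAIRE. Start sites widened by 500 bp left H3K4me1 at 3 other ETS family genes. Neither of these settings was applied to all genes or to the whole lists. With the MANE Select start alone, an alternative chosen after seeing the data, H3K4me1 was at 2 members, 2 other ETS family genes and 1 RUNX partner, against 12.5% of all genes. The other ETS genes and the partners, above the share of all genes with any start, were below it here, as were the members for H3K27Ac, with 5 of 9 against 60.6%. Among the targets H3K27Ac was at 3 and FAIRE at 1, against 60.6% and 31.9%; fewer starts are counted there. In 150 bases the motif shares were 8.61% for RUNX, 23.2% for ETS and 27.2% for AP-1, against 13.6%, 23.1% and 23.1% of all FAIRE peaks. In whole peaks they were 46.4%, 75.5% and 77.5%, against 51.4%, 70.9% and 59.2%, with fewer and more bases searched.

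Among values of single genes, 389 kept theirs and 61 moved. The chains were also formed with gaps of 5 kb and 20 kb, chosen after seeing the data. The ETS1 chain had 3 peaks under both, and that of ETS2 had 5 and 13 (the latter past the locus). The fullest chain of RUNX1 had 4 peaks (not the chain over P2) and 8. That of RUNX2 had 4 (not the chain in the 3′ part of the gene) and 6. The ELK3 chain had 1 and 3, and that of ERG had 1 and 2. Shares over whole lists were recomputed for the motif windows only. With no flank, the ETS2 counts were 4 H3K27Ac, 3 H3K4me1 and 5 FAIRE peaks. The peak lists give no read depth, so what depth limits was not assessed.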

Other observations

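Of the 22 H3K4me3 peaks in the loci, 7 were at no annotated start site of any gene. The same count over the whole H3K4me3 list was not made, so 7 of 22 has no counterpart to be read against. The one in the CBFB locus, chr16:67047084-67049085, scored 2136 and met no peak of another list. Nor did chr11:128418224-128419252 in ETS1, with a score of 71.6. The others were chr21:36628113-36629462 and chr21:37117614-37118914 in RUNX1, with scores of 84.3 and 168, chr11:128376473-128378582 in ETS1, with 291, chr21:40138591-40139740 near ETS2, with 136, and chr12:96709072-96710475 near ELK3, with 832.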
